A study of Bos taurus with 2 samples.

Results

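Histones are the proteins around which nuclear DNA is wound, and 116 of the 32428 gene names on a bovine array were histone genes by their descriptions. A gene name was included where the description of one of its probes gave a histone cluster, a histone family, or histone H1, H2A, H2B, H3 or H4. Descriptions holding methyltransferase, demethylase, acetyl, chaperone or binding were left out. The 116 names were read by 151 probes at 203 spots. By description they held 10 H1, 33 H2A, 45 H2B, 8 H3 and 19 H4 genes. The remaining name, HINFP, met the wording of the rule but is a transcription factor of histone H4 genes and not a histone. Some loci carried more than 1 name on the array, so the counts are of names and not of separate genes in the genome.

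The tissue was the right testis of bulls of 24 months, taken by unilateral castration. The crossbred group was 3 Holstein Friesian crossbred bulls with 50 to 75% exotic inheritance, and the Zebu group was 3 Tharparkar bulls, an indigenous Zebu breed. RNA of the 3 bulls of a group was pooled in equal amounts and hybridised with Cy3 label to 1 Agilent array per group, both on one slide. The comparison asked which transcripts differ between crossbred and Zebu testis. With 1 pooled array per group there was no replicate check, no p-value is given, and the spread between bulls is unknown. In whole tissue, fewer cells of a type and less RNA per cell cannot be told apart. The array was designed for Bos taurus, while Zebu cattle are Bos indicus. How well its probes match the sequences of either group was not tested.

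A nucleosome holds DNA around a core of histones H2A, H2B, H3 and H4, and linker histone H1 binds where the DNA enters and leaves it. Most histone genes are of the replication type: they stand in clusters, are used when DNA is copied, and give messenger RNAs that end in a short stem-loop and not in a poly(A) tail. Replacement variants such as H2A.Z, H2A.X, macroH2A and H3.3 are made throughout the cell cycle from polyadenylated RNA. The testis has its own variants as well, which enter chromatin in spermatocytes and spermatids before transition proteins and then protamines displace most histones from the sperm head. Labelling of both pools began from an oligo-dT primer, which pairs with poly(A). How this weighted the replication-type RNAs without such a tail was not tested.

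A level in the text is the log2 of the processed signal minus the 75th percentile of that array, a signal of 1176 for crossbred and 1233 for Zebu. A difference is the crossbred level minus the Zebu level, read from the brightest histone probe of each gene name. Of 61657 spots that were not controls, 13 were left out as outliers and 0 were saturated, and 71.1% of probes were well above background, which is called measured here, in both pools. The lowest measurable level was -5.78 for crossbred and -5.94 for Zebu. Among 26 histone probes with repeated spots, the SD of the difference between spots was 0.195, which covers spot error only. It is called the spot SD here. Over all 5962 probes with repeated spots the same SD was larger, at 0.331.

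Many of the probes read the coding sequence of near copies, so their letters are shown first. A probe counted as coding where, in the same reading frame, it shared at least 10 residues with a probe of another histone gene although bases differed, and held no stem-loop. By that measure 23 of the 151 probes lay in coding sequence. The measure can miss coding probes: that of HIST1H2BA, printed below, did not meet it. The following H2B probes run 5′ to 3′ over one stretch of the protein, and capitals mark bases that differ from the first of them.
ENSBTAT00000045227 (H2B, chr23:31064292-31064351): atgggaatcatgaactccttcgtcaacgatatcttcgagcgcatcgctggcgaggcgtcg
HIST2H2BE (H2B, chr3:22264035-22264093): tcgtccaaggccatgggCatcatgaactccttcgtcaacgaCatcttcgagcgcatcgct
ENSBTAT00000046019 (H2B, chr3:22379415-22379474): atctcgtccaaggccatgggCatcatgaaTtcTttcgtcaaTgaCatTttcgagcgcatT
HIST1H2BA (testis H2B, chr23:32266323-32266382): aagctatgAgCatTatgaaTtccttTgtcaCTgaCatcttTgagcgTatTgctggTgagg
The coordinates are those of the array files, on the HGSC Btau_3.1 build, and no exon annotation of that build was used here. Over 48 shared bases HIST2H2BE differed from the first probe at 2 positions, and over 45 shared bases ENSBTAT00000046019 differed at 7. All of those were at the third base of a codon, which often leaves the amino acid unchanged. The testis gene HIST1H2BA differed at 12 of 55 shared bases, 10 of them at the third base of a codon. The 3 somatic H2B probes can share labelled RNA, and their values are not independent.

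The same holds for H4, the histone whose protein sequence varies least. In the pairs that follow, capitals in the second sequence mark bases that differ from the first.
LOC617875 (H4, chr23:31791385-31791443): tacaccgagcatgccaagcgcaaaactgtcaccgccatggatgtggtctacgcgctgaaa
ENSBTAT00000033375 (H4, chr23:31021527-31021586): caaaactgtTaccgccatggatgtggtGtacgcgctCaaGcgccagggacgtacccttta
ENSBTAT00000030247 (H4, chr29:36153177-36153236): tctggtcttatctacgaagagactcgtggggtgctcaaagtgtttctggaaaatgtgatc
ENSBTAT00000056505 (H4, chr1:69079221-69079280): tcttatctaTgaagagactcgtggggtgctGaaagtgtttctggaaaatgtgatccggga
The first pair differed at 4 of 40 shared bases and the second at 2 of 55, all at the third base of a codon. Across the 151 probes, 20 pairs were at least 90% identical over 45 bases or more. These pairs tied 22 gene names into 10 groups, and within each of the 10 groups every difference had the same sign. The group of TC470651 and XM_002692765 was measured on neither array, so its shared sign is not informative.

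Histone genes stood higher on the crossbred array in most cases, by modest amounts. Of the 116, 82 were measured on both arrays, 1 for crossbred alone, 4 for Zebu alone and 29 on neither. Among the 82, 57 had the higher level in crossbred and 25 in Zebu, so that 69.5% were higher in crossbred, against 47.7% of the 22842 gene names measured on both. The median difference was 0.55 on the log2 scale, a ratio of 1.46, with quartiles of -0.25 and 0.98, against a median of -0.04 for all gene names. These are descriptions of 2 arrays, and the members are not replicates of a condition. The median of the histone genes lay between 0.46 and 0.55 under each other processing tried.

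**Figure D1:**
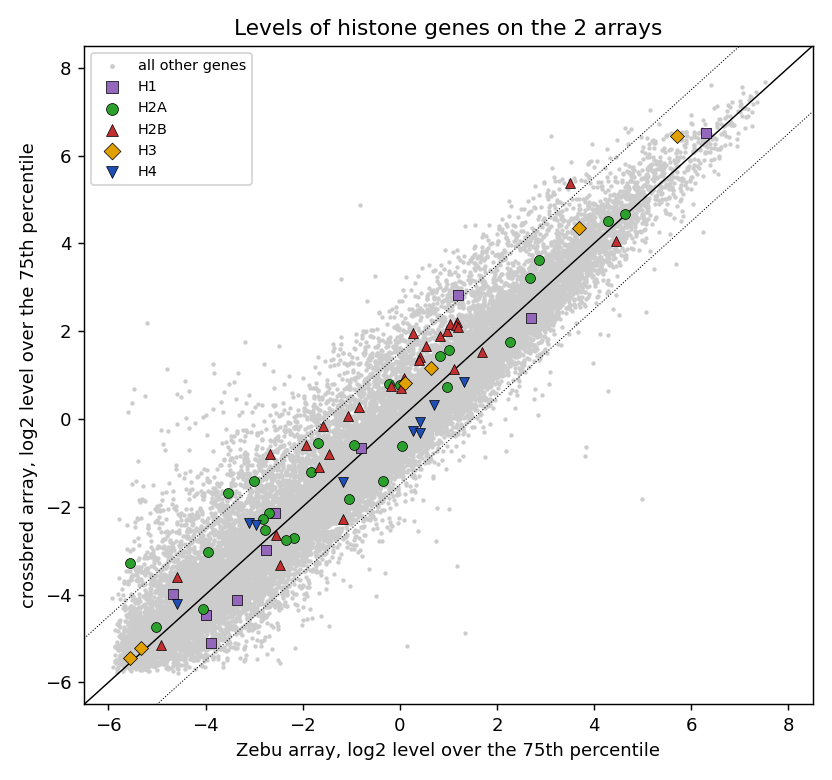
Level of each histone gene on the Zebu array (x axis) and the crossbred array (y axis), both as log2 signal over the 75th percentile of the array, for genes measured on both; grey points are all other gene names, the solid line marks equal levels and the dotted lines a difference of 1.5. H2B genes lie mostly above the line of equal levels, and H4 genes mostly on or below it.

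Few histone genes were far apart on the 2 arrays. With a threshold of 1.5 on the log2 scale, 7 of the 87 detected histone genes were higher in crossbred and 0 were lower. Across the array, 7.12% of the 24751 detected gene names were higher and 2.92% were lower by the same threshold, so the share of histone genes past 1.5 was near the background. At a difference of 1 or more there were 20 histone genes of 82, against 12% of all gene names. At -1 or less there were 3 histone genes, against 7.07% of all gene names. Among the 87 detected names, at a difference of 2, 1 histone gene was higher and 0 were lower, against 3.49% and 1.2% of all detected gene names. At a linear fold of 1.5, 37 of the 87 were higher and 10 lower, against 21.4% and 22.2%. At a difference of 1 over the same 87 names, 20 were higher and 4 lower, against 12.8% and 8.87%.

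The classes of core histone did not lie together, with H2B highest and H4 lowest. The median difference was 0.99 for 29 H2B genes, 0.59 for 6 H3 genes, 0.53 for 27 H2A genes, -0.04 for 10 H1 genes and -0.38 for 9 H4 genes. In ratios, the H2B median corresponded to 1.99 times the Zebu level and the H4 median to 0.77 times. Among H2B genes 23 were higher on the crossbred array and 6 lower, and among H4 genes 3 were higher and 6 lower. Every histone name not listed as a replacement or germline variant was counted as replication-type. Within that count the medians were 0.98 for 26 H2B names and -0.42 for 8 H4 names. The H2B names so counted include some like LOC523702 on chromosome 9, whose place in a histone cluster was not checked. No test of the difference between classes was possible with 1 array per group.

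**Figure D2:**
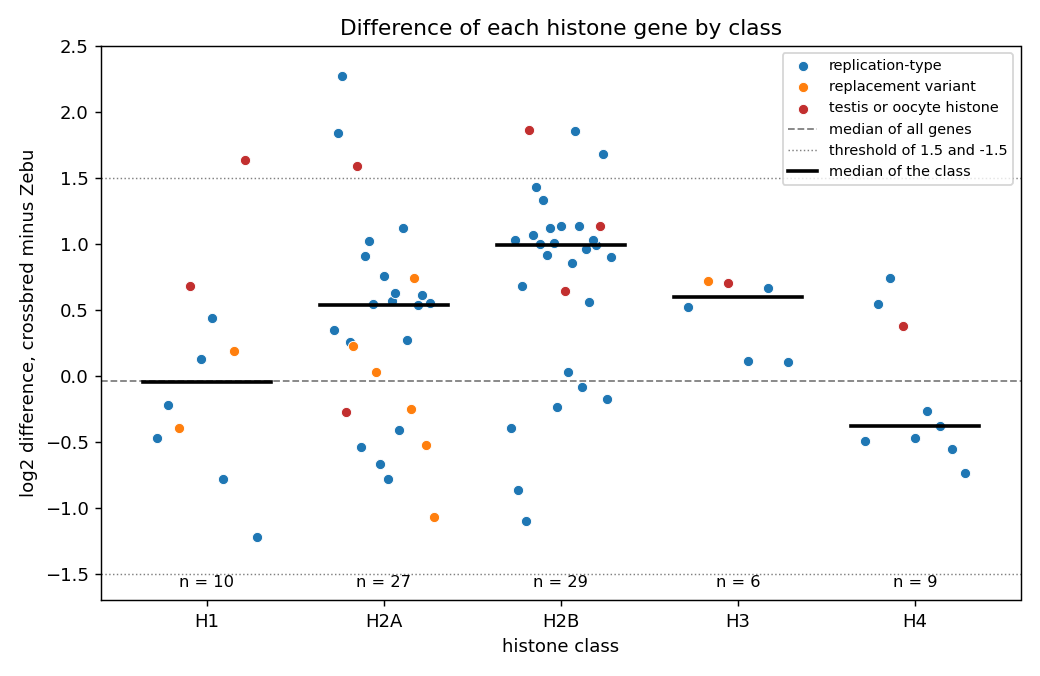
Log2 difference between the crossbred and the Zebu array for each histone gene measured on both, by class (x axis) and coloured by type; thick bars are class medians, the dashed line is the median of all gene names and dotted lines mark 1.5 and -1.5. The H2B median is 0.99 and the H4 median -0.38, with H1 spread on both sides of 0.

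H2B, the partner of H2A in the nucleosome core, had the highest class median. In all, 14 of the 29 H2B genes had a difference of 1 or more, against 12% of all gene names measured on both arrays. ENSBTAT00000033378 had a crossbred level of 2.20 and a Zebu level of 1.18, a difference of 1.03. ENSBTAT00000045227, whose probe is shown above, had levels of 1.42 and 0.41, a difference of 1.01. ENSBTAT00000046019, the near copy on chromosome 3, had a difference of 1.03. HIST1H2BD had levels of -0.15 and -1.58, a difference of 1.43, and its other probe gave 0.83. XM_868357, the H2B gene least different between the arrays, had levels of 1.15 and 1.12, a difference of 0.03 that is inside the spot error.

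Past the threshold, 2 H2B names counted as replication-type were higher in crossbred. XM_002686059, which RefSeq names H2BC18, had a crossbred level of -0.81 and a Zebu level of -2.66, a difference of 1.86. ENSBTAT00000033366, described as an H2B type 1 gene at chr23:31064502-31064562, had levels of 1.96 and 0.28, a difference of 1.68. Both stayed past 1.5 when the background was modelled another way (normexp), at 1.54 and 1.67. Each of these 2 differences was several times the spot SD, and each group was 1 pool. The probe of ENSBTAT00000033366 starts 210 bases from that of ENSBTAT00000045227, on the same strand, and the latter gave 1.01. Whether those names read one gene was not tested.

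The lowest H2B value came from a spot in a dark patch of the crossbred array. LOC522960, RefSeq H2BC11, had levels of -2.28 and -1.18, a difference of -1.10, and its only spot lay in the patch, which spans rows 54 to 99 and columns 35 to 46. A probe of the same locus outside the patch, listed as XM_002697500, had levels of -1.10 and -1.66, a difference of 0.56. The signs of the 2 probes were opposite. No other histone spot lay in that patch, and 0 lay in a bright patch marked elsewhere on the array. Leaving out both patches moved none of the other genes chosen for naming by rule by more than 0.0088.

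H4, the other core partner of H3, was lower on the crossbred array at most detected names. ENSBTAT00000053055 had a crossbred level of -0.32 and a Zebu level of 0.42, a difference of -0.73. ENSBTAT00000030247 had levels of -0.28 and 0.28, a difference of -0.56. ENSBTAT00000056505, its near copy shown above, had levels of -0.06 and 0.41, a difference of -0.47. The other printed pair, LOC617875 (RefSeq H4C4) and ENSBTAT00000033375, gave -0.49 and -0.38. The least different H4 gene, ENSBTAT00000044974, had levels of -1.44 and -1.18, a difference of -0.26. Its size is above the spot SD of histone probes but below the 0.331 of all probes.

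The H4 genes higher in crossbred shared a single probe sequence or were faint. ENSBTAT00000033367 had levels of -2.36 and -3.10, a difference of 0.74, and was the H4 name furthest from 0. XM_002697470, RefSeq H4C11, had levels of -2.43 and -2.97, a difference of 0.54, and its probe holds the same 60 bases as that of ENSBTAT00000033367. These were 2 readings of one sequence, apart by about the spot SD. LOC530773, a germinal H4-like gene that RefSeq names H4C16, had levels of -4.21 and -4.59, a difference of 0.38. Of 19 H4 names 9 were measured on neither array, and XM_002695589 for crossbred alone, at least 1.06-fold brighter there than its own Zebu level, which was above the lowest measurable level of that array.

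Probes inside coding sequence had H2B highest and H4 lowest, as in the whole set, where many of the same probes give the gene values. No H1 probe and 1 H2A probe met the coding measure. Of 11 such H2B probes 10 were higher on the crossbred array, with a median difference of 0.96 and a range from -0.08 to 1.13. Of 7 such H4 probes 1 was higher and 6 were lower, with a median of -0.47 and a range from -0.73 to 0.38. All 3 coding H3 probes were higher, with a median of 0.66. A coding probe for a core histone can read several genes of its class at once, so the gene behind each of these values is uncertain. Probes without evidence of coding sequence gave a median of 0.68 over 29 H2B probes. That set can still hold coding probes, such as that of HIST1H2BA. Only 3 H4 probes without such evidence were measured on both arrays, 2 of them higher in crossbred, with a median of 0.54. H4 was thus not the lowest class in that set, where H1 had a median of -0.04.

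The stem-loop that ends replication-type histone messenger RNAs could be found in the probes themselves. The letters of a stem GGCNCT, a loop TTTN and a closing stem AGNGCC, in that order without a gap, were searched on both strands of all 51282 probe sequences. They stood in 11 probes, 0.0215% of all, on the forward strand only, and 10 of the 11 were histone probes. The stem-loops of the 3 probes that differed most between the arrays in either direction follow, with the 16 bases of the motif in capitals and up to 5 bases on each side.
ENSBTAT00000033366 (H2B): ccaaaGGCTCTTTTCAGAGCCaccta
XM_002697498 (H2A): ccaacGGCTCTTTTCAGAGCCaa
LOC617875 (H4): ccaaaGGCCCTTTTCAGGGCCa
The stem-loop ends the mature message, beyond the coding sequence. In the probe of ENSBTAT00000033366, with the reading of 1.68 given above, the printed bases are 19 to 44 of 60, so this probe runs on past the stem-loop. XM_002697498, RefSeq H2AC12, had levels of -1.69 and -3.53, a difference of 1.84, which was 1.31 with the normexp background. The stem-loop probe of LOC617875 had levels of -0.51 and 0.88, a difference of -1.39, lower in crossbred like its coding probe. Over the 10 stem-loop probes, 9 were measured on both arrays, and their differences ran from -1.39 to 1.84 with both signs among H2A and H2B. The presence of the motif in a probe did not go with a single direction.

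H2A genes were mostly higher on the crossbred array, while the replacement variants among them were split evenly. Of 19 H2A names counted as replication-type 15 were higher and 4 lower, with a median of 0.55. The share higher among all gene names measured on both arrays was 47.7%. Some of the 19 names have near-identical probes and are not separate readings. Of 6 replacement variants 3 were higher and 3 lower, with a median of -0.11. HIST1H2AG, a replication-type gene at chr23:31057837-31057896 read by 4 probes, had levels of 3.22 and 2.68, a difference of 0.53, with all 4 probes between 0.43 and 0.54. HIST1H2AH had levels of -0.55 and -1.67, a difference of 1.12. The largest H2A difference was that of HIST1H2AC, with levels of -3.27 and -5.55 and a difference of 2.27. It was faint, with the Zebu level just above the lowest measurable, and the difference was 1.09 with the normexp background. Its other probe was measured on neither array. RefSeq names it H2AC6, and XM_002697519, a further name with that symbol, had levels of -3.04 and -3.95, a difference of 0.91.

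Among the replacement variants of H2A, those of H2A.Z and H2A.X had small differences at several probes each. H2AFZ, the gene of H2A.Z, a variant of promoters and other regulatory regions, had levels of 4.51 and 4.28, and its 3 probes gave -0.02 to 0.29. H2AFV, the second H2A.Z gene, had levels of 4.67 and 4.64, a difference of 0.03, the smallest among H2A genes, and its probes gave -0.04 to 0.12. H2AFX, the variant phosphorylated at DNA breaks and on the sex chromosomes of spermatocytes, had levels of 0.73 and 0.98, and both its probes gave -0.25. No probe of these 3 genes was further from 0 than 0.29.

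Further from 0 were the macroH2A genes, which encode large H2A variants of silent chromatin. H2AFY, macroH2A1, had levels of 1.75 and 2.28, a difference of -0.52, and its 4 probes gave -0.75 to -0.21. H2AFY2, macroH2A2, had levels of -1.41 and -0.34, a difference of -1.07. Its other probe was measured for Zebu alone. The 5 macroH2A probes measured on both arrays were all lower on the crossbred array. H2AFJ, a variant that keeps a poly(A) tail, stood on the other side with levels of 3.61 and 2.87, a difference of 0.74.

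The 6 H3 names measured on both arrays all had the higher level in crossbred, though not all by more than the spot SD. H3F3C, an H3.3-like replacement gene named H3-3D by RefSeq, had levels of 6.44 and 5.72, a difference of 0.72, and 0.47 at its other probe. A probe of the same gene name with a description outside the rule gave -0.10. LOC504599, RefSeq H3C13, had levels of 4.36 and 3.70, a difference of 0.66, and a second probe overlapping the first over 50 bases with 1 mismatch gave 1.69. XM_591827, the H3 gene least different, had levels of -5.22 and -5.32, a difference of 0.11. ENSBTAT00000044975 had levels of -5.44 and -5.56, a difference of 0.12. Both names lay close to the lowest measurable level, with differences inside the spot SD. The probes of XM_002688505 and NP9568770, at 0.70 and 0.53, shared 47 bases without mismatch. The H3F3A and H3F3B probes for H3.3 proper fell outside the wording of the rule and gave differences from -0.32 to 0.43.

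H1 linker histones were split, with 5 higher and 5 lower on the crossbred array. HIST1H1C had levels of -5.11 and -3.89, a difference of -1.22, the lowest among histone genes measured on both arrays. HIST1H1E had levels of -4.13 and -3.35, a difference of -0.78. These somatic linker genes of the chromosome 23 cluster were faint on both arrays. HIST1H1D, the least different, had levels of -0.66 and -0.79, a difference of 0.13. H1F0, the linker histone of cells that have stopped dividing, had levels of 2.30 and 2.70, a difference of -0.39, and -1.13 at its other probe. H1FX, another replacement linker, had levels of 6.51 and 6.32, a difference of 0.19 that is close to the spot SD.

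Histones named as testis or oocyte variants were higher on the crossbred array at 8 of 9 names measured on both arrays. Among all gene names measured on both, 47.7% were higher. Of the 7 histone genes past 1.5, 3 were such variants. These were 3 of the 9 detected variants, while 7.12% of all detected gene names were past 1.5 on that side. The median difference of the variants was 0.70. LOC404073, an H2B variant that its description calls PT15 and RefSeq H2BL1, had a crossbred level of 5.37 and a Zebu level of 3.51, a difference of 1.86. H1FOO, the linker histone of oocytes, had levels of 2.83 and 1.19, a difference of 1.64, and its other probe had 1.89 and 0.71, a difference of 1.18. LOC528006, described as H2A-Bbd, a short H2A variant of testis that makes looser nucleosomes, had levels of -1.42 and -3.00, a difference of 1.59. The normexp background left LOC404073 at 1.85 but put H1FOO at 1.47 and LOC528006 at 1.28, both under the threshold.

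The PT15 variant had a further probe that overlaps the first over 59 bases and gave a larger difference. The middle of each shows most of what sets them apart, with differing bases in capitals (G13A and C25A, counted from the first base printed).
LOC404073 first probe: ctccatgttcgaGcttcattaaatCt
LOC404073 further probe: ctccatgttcgaActtcattaaatAt
In all they differed at 3 of the 59 shared bases. The further probe had levels of 3.61 and 0.07, a difference of 3.54. Both probes were higher on the crossbred array, and the size of the difference depended on which was read. How well each probe matches the sequence of either group was not tested.

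The remaining germline variants had smaller differences. XM_002702925, RefSeq H2BC1, the present symbol for testis H2B, had levels of 1.67 and 0.54, a difference of 1.14. HIST1H2BA, the older symbol for testis H2B, stood on the array as a name of its own with the probe printed above, and had levels of -0.81 and -1.45, a difference of 0.65. XM_002688505, RefSeq H3-4, a testis H3, had levels of 0.82 and 0.11, a difference of 0.70. Its probe shared 47 bases without mismatch with that of NP9568770, an H3 name counted as replication-type by default, at 0.53. Whether both names read one gene was not tested. XM_002695903, RefSeq H1-9, a spermatid linker histone, had levels of -4.00 and -4.67, a difference of 0.68, which was 0.32 with the normexp background. HIST1H2AA, the H2A gene next to HIST1H2BA, had levels of -4.34 and -4.06, a difference of -0.28 and the only negative value among germline names measured on both arrays. XM_002697535, RefSeq H2AC1, was measured on neither array. A testis-specific histone 2a-like gene, LOC523631, was left out by the wording of the rule and had levels of 5.57 and 3.84, a difference of 1.73.

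**Figure D3:**
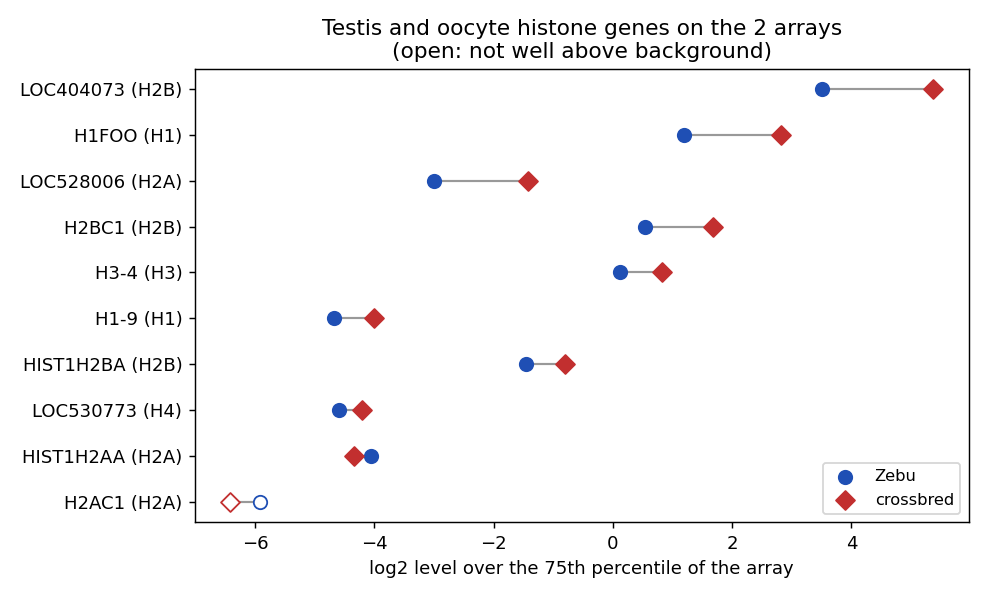
Level of each testis or oocyte histone gene on the Zebu array (blue circles) and the crossbred array (red diamonds), as log2 signal over the 75th percentile of the array, with open symbols for a probe below the measurable range. LOC404073, H1FOO and LOC528006 show the widest gaps, and HIST1H2AA is the filled pair with the Zebu level on the right.

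Along chromosome 23, where 32 of the 67 histone names with a probe position lay, differences of both signs were found. In the stretch chr23:31009909-31064562 the H2B gene ENSBTAT00000033378 was at 1.03, and the H4 gene ENSBTAT00000033375, 11618 bases on, was at -0.38. HIST1H2BB, described on the array as an H2bn gene, followed at 0.91, HIST1H2AD at 0.27, LOC100848734 at 0.55, the H4 gene ENSBTAT00000033367 at 0.74 and HIST1H2AG at 0.53. The stretch ended with ENSBTAT00000045227 at 1.01 and ENSBTAT00000033366 at 1.68, whose probes start 210 bases apart on the same strand. In a second stretch HIST1H2BD at 1.43, HIST1H1E at -0.78 and HIST1H2AC at 2.27 lay in that order, 23938 and 18273 bases apart. In the first stretch 8 of the 9 names were higher on the crossbred array, against 47.7% of all gene names measured on both. Most names of that stretch are H2A or H2B. The stretches stand as examples, and whether a region of the chromosome differed was not tested.

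Where a gene had several detected probes, they mostly told the same direction. Of 18 such genes 3 had probes that differed in sign by more than the spot SD. HIST2H2BE gave 0.90 at its coding probe, 0.49 at another and -1.58 at the last, where the levels were -2.17 and -0.58. The name H2B covered 3 accessions on chromosomes 3 and 23 and 6 probes from -0.39 to 1.40, of which the brightest had levels of 4.06 and 4.46. HINFP gave 0.46 at levels of 0.92 and 0.46, and -0.72 at its other probe. The median range over the probes of a gene was 0.63 and the widest 2.49, while 69 detected genes rested on 1 detected probe.

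**Figure D4:**
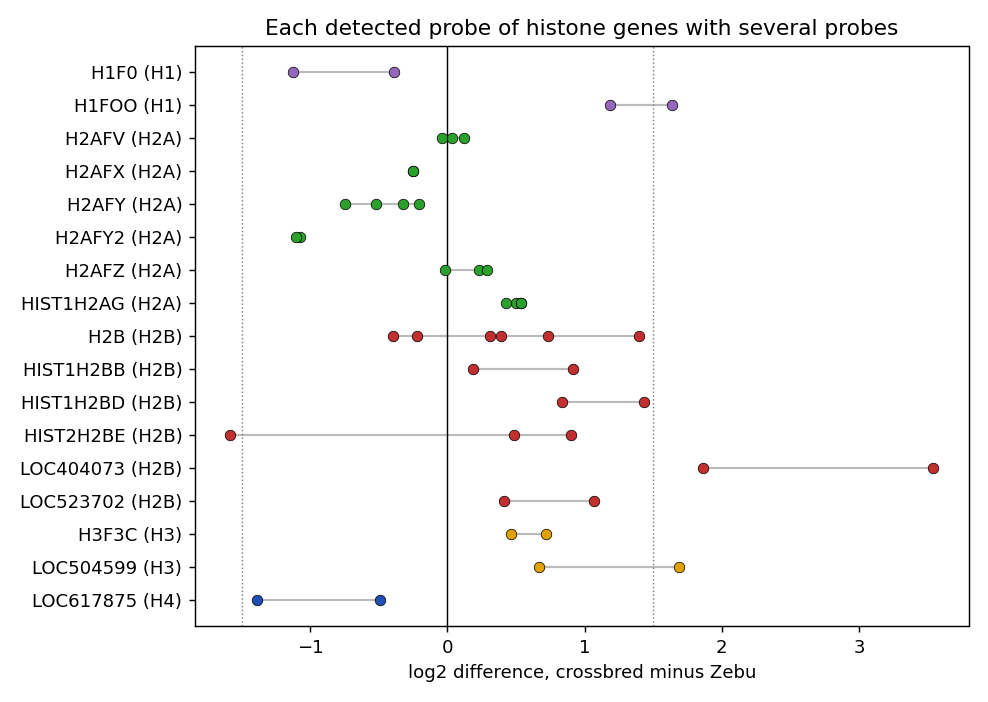
Log2 difference between the crossbred and the Zebu array at each detected probe (points) of histone genes with several probes, joined by a line per gene and coloured by class, with the lower H2AFY2 probe measured for Zebu alone; the solid line marks 0 and dotted lines 1.5 and -1.5. H2AFV, H2AFX and HIST1H2AG probes nearly coincide, and HIST2H2BE and H2B probes fall on both sides of 0.

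A few histone genes were measurable on the Zebu array alone. HIST3H2A was at least 1.47-fold, LOC618143 at least 1.1-fold and XM_608099 at least 1.82-fold brighter on the Zebu array, the dim side being set at its own level or the lowest measurable level, whichever was higher. XM_002697511, an H3 name measured for Zebu alone, had levels of -5.55 and -5.65, and no fold is given since the Zebu level was the lower. Of the 29 names measured on neither array, 15 were H2B and 9 were H4. These names are limited by depth of signal, and a difference between the pools was not detectable for them.

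Genes that make, carry or displace histones were read from lists. The counts that follow stand beside 47.7% of all gene names measured on both arrays that were higher in crossbred. For synthesis and 3′ end processing of histone messages, 8 of 11 genes were found, 5 higher and 3 lower on the crossbred array, with a median of 0.28. SLBP, which binds the stem-loop, had levels of 2.11 and 2.37, a difference of -0.26. SYMPK, a scaffold of the cleavage complex, had levels of 4.88 and -0.82, a difference of 5.70, while its other 3 probes gave 0.59 to 0.66. The SYMPK reading was thus that of 1 spot and was not matched within its gene. CPSF2, a subunit of the same complex and the least different, gave -0.19, or 0.05 as the mean of its detected probes.

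The medians of histone chaperones and of replication genes were near 0 or below. Of 18 chaperones and importers 5 were higher and 13 lower, with a median of -0.06 and none past 1.5. CHAF1B, a subunit of the factor that loads H3 and H4 behind the replication fork, had levels of 2.90 and 1.47, a difference of 1.43, with 0.98 and 0.36 at its other probes. ASF1B, a chaperone that hands H3 and H4 to that factor, had levels of 1.01 and 1.01. NASP, a chaperone abundant in testis, had a difference of 0.68. Of 18 DNA replication genes 4 were higher and 14 lower, with a median of -0.27 and 0 past 1.5. GMNN, the replication licensing inhibitor, was at -0.81, or -0.45 as the mean of its detected probes, and MCM6, a helicase subunit, was at -0.07. Histone names counted as replication-type, in the way set out above, had a median of 0.55 on the same arrays.

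The genes that exchange histones for protamines were higher on the crossbred array at 10 of 11 names, with a median of 0.91 and 4 past 1.5. Across the array, 47.7% of names measured on both were higher, and 7.12% of detected names were past 1.5 on that side. TSSK6, a spermatid kinase linked to histone removal, had levels of 2.01 and -0.76, a difference of 2.77. TNP2, a transition protein, was at 1.74, PRM2 at 1.88 and PRM3 at 1.86. PSME4, a proteasome activator for acetylated histones and the least different of the list, had levels of 2.79 and 2.68, a difference of 0.12, or 0.41 as the mean of its detected probes. TSSK6, TNP1, TNP2, PRM1 and PRM2 also stand among the spermatid markers that follow.

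**Figure D5:**
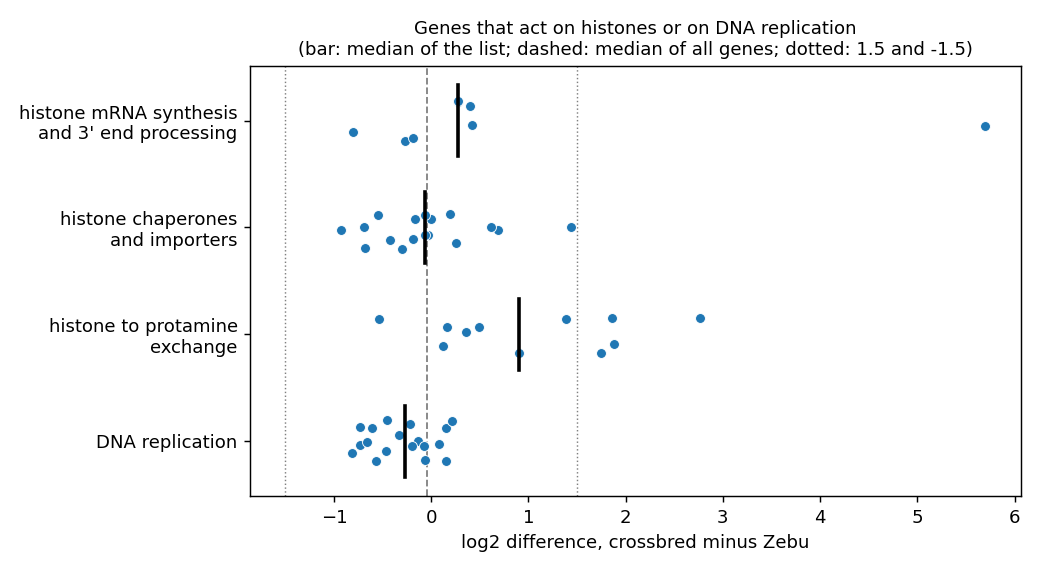
Log2 difference between the crossbred and the Zebu array for each gene (points) of lists that act on histones or DNA replication, with the list median as a thick bar, the median of all gene names as a dashed line and 1.5 and -1.5 as dotted lines. The protamine exchange list has a median of 0.91 and the DNA replication list -0.27; the single point near 5.7 is SYMPK.

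Cell type markers differed between the pools as well. The array-wide shares to set beside their counts are 47.7% higher among names measured on both arrays, and 7.12% of detected names past 1.5. Of 12 spermatid markers 12 were higher on the crossbred array, with a median of 1.62, 8 past 1.5, and a summed signal of 8.85e+05 against 4.56e+05. Of 5 spermatocyte markers 5 were higher, with a median of 0.84 and sums of 2.33e+04 and 1.70e+04. Of 6 spermatogonial markers 2 were higher, with a median of -0.66 and sums of 3.47e+04 and 5.03e+04. The spermatogonial median thus had the opposite sign to those of the later stages. Markers of Leydig cells were lower at 6 of 6, with a median of -0.79 and sums of 1.03e+05 and 1.63e+05. Sertoli cell markers were lower at 4 of 4 detected, with a median of -0.69 and sums of 1.21e+05 and 1.81e+05, and INHBB was not detected. Peritubular markers were lower at 4 of 4, with a median of -0.77 and sums of 3.27e+04 and 5.98e+04.

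Endothelial markers had a median of 0.11 with 3 of 4 higher, and macrophage markers 0.20 with 2 of 3 measured on both arrays higher. CD163, a further macrophage marker, was measured for Zebu alone, near the lowest measurable level. Of the red blood cell markers, HBA was at -2.15, and HBB and ALAS2 were not detected. The part of these markers in the differences of the histone genes was not tested. For the testis label, the germ cell, Leydig and Sertoli markers found on the array were measured in both pools, apart from INHBB.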

How the data were processed

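Testis RNA of 3 crossbred and 3 Zebu bulls was pooled per group and hybridised to 1 single-colour Agilent array each. The authors deposited scanner output with background-corrected signal intensity per spot (Agilent Feature Extraction) and a table of log2 values shifted by the 75th percentile, whose scale the methods give. Here the processed intensity was used: spots of a probe were averaged as log2, the array's 75th percentile over non-control probes was subtracted, and control and outlier spots were left out. The result lay within 0.05 of the deposited log2 values for 98.1% of probes on both arrays, whose medians are -3.00 and -3.01 for crossbred and Zebu. A gene name was read from its brightest histone probe. A gene was detected where its probe was called well above background by the scanner software in 1 pool or both, and the threshold was a log2 difference of 1.5. Of the histone names, 58 matched a RefSeq symbol (ARS-UCD2.0 table, used for names only).

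The members and lists were chosen with earlier results of these data known. Genes described by name were those past 1.5, testis and oocyte variants, the most and least different of each class and list, members with a spot in a marked patch, and members whose probes differ in sign; others stand as examples of their class. Alternatives were normexp with an offset of 50, other scalings, the deposited values, the mean of all detected probes, the patches left out, both arrays required and other thresholds. Class medians and 1 value per group of near-identical probes were added after seeing the data. Scripts were tested on simulated data (Python 3.11.15, numpy 2.4.6, pandas 2.3.3, R 4.3.3, limma 3.58.1). No interval is given, since 1 array per group limits the precision.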

Additional observations from a re-analysis of the deposited data

How the results depend on the processing

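The count of histone genes higher in crossbred, 7 at a log2 difference of 1.5, was 20 at a difference of 1, 1 at a difference of 2, 37 at a linear fold of 1.5, 3 with the normexp background and 6 with the mean of all detected probes. Among the 87 detected names the count lower in crossbred, 0, became 4 at a difference of 1 and 10 at a linear fold of 1.5. Both counts take LOC618143 at its read difference of -1.08, although it was measured for Zebu alone and its bound is 1.1-fold. The median of the H2A genes, 0.53, was 0.32 with normexp. The other medians, of all histone genes and of H1, H2B, H3 and H4, kept their direction and moved by less than the spot SD under each alternative run. With 1 value per group of near-identical probes the median of all histone genes was 0.50. Of the 33 genes chosen for naming by the rules above, 30 kept their direction with normexp and 31 with quantile normalization. With the mean of all detected probes 27 of 32 did so. Further genes given as examples were not run singly under the alternatives. No paired analysis was possible because each group had 1 array. Signal over background limits the 29 histone names detected on neither array.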
